A study of Mus musculus with 6 samples.

Results

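The genes described here encode the T-cell receptor complex and other proteins that mark the T lineage: the CD3 chains Cd3d, Cd3e and Cd3g, the co-receptors Cd4 and Cd8a, the kinases Lck and Zap70, the surface glycoproteins Thy1 and Cd5, and the membrane protein Ms4a4b. They were read in pre-B cells, where most of them mark another lineage. A gene counted as measured where the platform annotation named it as the single gene of a probe set, the group of short array probes that reports a transcript. Of these 10 genes, 8 had such a probe set in the deposited values, with 1 probe set each, among 17689 probe sets for 17372 genes. Cd3e and Lck were not analysed here. Any probe set of these genes on the array but outside the deposited values was not seen.

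The study asked which genes depend on MEF2C, a MADS box transcription factor, in B-cell progenitors of the bone marrow. Pre-B cells were sorted as B220+ IgM- CD43- live cells, and RNA of the sorted cells was read on Affymetrix GeneChip arrays of the mouse genome. T cells, NK cells, granulocytes and monocytes carry CD43 and mostly lack B220. How many of these cells, or of plasmacytoid dendritic cells, passed the gate was not tested. The Mef2c-deficient group held 3 arrays from mice 9 months old that carried Vav-Cre and Mef2c fl/fl, so Mef2c was deleted throughout the blood-forming system and not in B cells alone. The control group held 3 arrays from mice of the same age, and the methods allow controls with 2 floxed alleles and no Cre, or with 1 floxed allele (Mef2c fl/+), with or without Vav-Cre, without saying which array had which. The samples are called independent, but nothing used here ties an array to an animal, so the p-values measure the spread between these samples only. The deletion was not checked on these arrays, since Mef2c was not analysed here.

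On a T cell, the alpha and beta chains of the receptor bind antigen, and the CD3 chains carry the signal into the cell through short tyrosine motifs. CD4 and CD8 bind MHC molecules and bring the kinase LCK to the receptor, LCK phosphorylates the CD3 motifs, and ZAP-70 docks there and passes the signal on. B cells build their receptor on the same plan, with CD79A and CD79B in place of the CD3 chains and SYK in place of ZAP-70. Some of the T-lineage proteins are not restricted to T cells: mouse plasmacytoid dendritic cells can carry CD4 and B220, CD5 marks B-1 cells, and THY1 is found on several immature blood cells.

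Every value below is the log2 of the deposited array signal, and every difference is the Mef2c-deficient mean minus the control mean on that scale. A difference was called where its p-value, from limma fitted to all 17689 probe sets and adjusted by the Benjamini-Hochberg procedure, was under 0.05. The base of the exponent that took the deposited values off the log scale is not settled, and if it was e instead of 2, each log2 difference is 0.69 times as large. Mef2c-deficient replicate 3 stood apart from the other arrays. Its probe sets deviated from the mean of its group with an SD of 0.706, against 0.282 to 0.435 for the control arrays and 0.512 to 0.567 for the other Mef2c-deficient arrays. Its 11 neutrophil markers lay 4.59 (median) above the control mean, where the other Mef2c-deficient arrays lay at -0.02 and -1.08. Results are therefore given with and without it where it changes them.

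The label of the samples was checked against markers of B cells. Cd79a and Cd79b, the signalling chains of the B-cell receptor, gave 17.80 to 19.22 on all 6 arrays. Of 15 probe sets for pre-B cell markers, 13 had a lower mean in the Mef2c-deficient arrays, with a median difference of -1.09 (-0.69 without Mef2c-deficient replicate 3, -0.74 under quantile normalization and -0.58 under cyclic loess), and none passed the adjusted threshold. Most probe sets of high signal were lower too, with 19.7%, 17.0% and 22.0% higher in the highest 3 deciles of mean signal. Levels of different probe sets cannot be ranked against each other on an array, so the T-lineage signals below are compared between arrays and not between genes, and a gene named for the highest mean value of its list is chosen by that rule alone, with no order of expression implied.

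The T-lineage signals were higher in mean in Mef2c-deficient pre-B cells for 8 of 8 probe sets, by 0.51 (Cd3g) to 3.0 (Cd4), with a median difference of 0.86. Over all probe sets tested, 52.6% were higher and the median difference was 0.07. None of the 8 passed the adjusted threshold by limma (adjusted p from 0.145 to 0.494), and 0.017% of all probe sets tested did: 3 probe sets, for Slc1a5, Tnnt2 and Rapgef3, named here after their values were seen. At an unadjusted p under 0.05, 2 of the 8 were higher, Cd3d and Cd4, and 0 were lower. Cd3d passed that level in 10 of 21 settings of the analysis, and not under quantile normalization (0.0706), cyclic loess (0.0755), median centring (0.0653) or array weights (0.054). Under quantile normalization and cyclic loess the genes at that level were Cd4 and Zap70 (0.0428 and 0.0387 for Zap70). In all probe sets tested the corresponding shares were 8.26% higher and 15.4% lower. Those shares are 1461 and 2717 probe sets, and they became 638 and 3644 when each array was centred on its median. The plot of signals by array shows the 8 genes side by side.

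**Figure D1:**
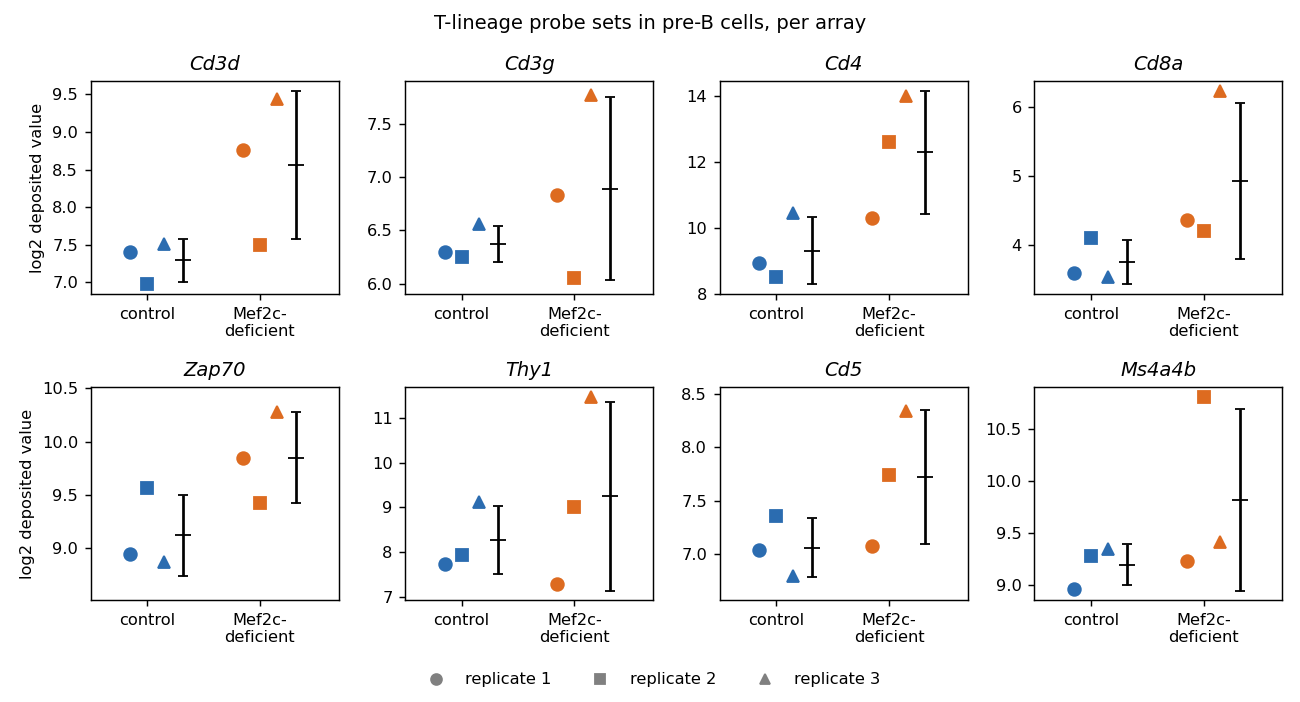
Log2 of the deposited signal on each of the 6 arrays for the 8 T-lineage probe sets, each panel with its own axis. Circles, squares and triangles are replicates 1, 2 and 3, control in blue and Mef2c-deficient in orange, and black bars give the mean and SD of each group of 3 arrays. Mef2c-deficient replicate 3 is the highest array in 7 panels and Mef2c-deficient replicate 2 in the panel of Ms4a4b.

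The direction held for 8 of 8 probe sets under quantile normalization, cyclic loess and median centring of the arrays. Across the array as a whole, the share of probe sets with a higher mean varied with signal level: ordered by mean signal, 86.0% were higher in the Mef2c-deficient arrays in decile 1 (the lowest signals), 66.5% in decile 5, 51.9% in decile 6, 17.0% in decile 9 and 22.0% in decile 10. Cd8a lay in decile 1, where the median difference of all probe sets was 0.39, Cd3g in decile 3 (0.36), Cd5 in decile 4 (0.34) and Cd3d in decile 5 (0.29). Zap70, Thy1 and Ms4a4b lay in decile 6 (0.06). Cd4 lay in decile 8, where the median was -0.67 and 19.7% of probe sets were higher. The deciles rest on the mean of all 6 arrays, so the high Mef2c-deficient signals of Cd4 helped to set its decile. Its control mean of 9.30 was close to those of Zap70 (9.12) and Ms4a4b (9.20) in decile 6.

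Cd3d and Cd3g encode the delta and gamma chains of CD3, which pair with CD3 epsilon and hold the receptor at the cell surface. The 3 CD3 genes stand side by side on mouse chromosome 9, Cd3g and Cd3d on opposite strands with their start sites close together. Their promoters are printed because the start sites are neighbours and replicates 3 and 1 of the Mef2c-deficient group were the highest arrays for both genes. The sequences are the RefSeq windows of 250 bases before to 50 bases after the start site in GRCm38.p6, chr9:44981536-44981835 on the plus strand for Cd3d and chr9:44980382-44980681 on the minus strand for Cd3g, with capitals marking the motifs searched on both strands: CANNTG for the E-box, TGTGGT for RUNX factors, AGATAA for factors of the GATA family, TCAAAG for TCF-LEF factors, TGGGAA for Ikaros, and the MEF2 consensus.
Cd3d: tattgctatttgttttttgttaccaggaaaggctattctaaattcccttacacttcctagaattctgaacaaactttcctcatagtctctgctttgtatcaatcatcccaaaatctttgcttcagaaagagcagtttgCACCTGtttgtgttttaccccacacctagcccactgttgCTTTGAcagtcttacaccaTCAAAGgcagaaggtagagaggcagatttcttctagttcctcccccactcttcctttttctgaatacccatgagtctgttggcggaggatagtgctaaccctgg
Cd3g: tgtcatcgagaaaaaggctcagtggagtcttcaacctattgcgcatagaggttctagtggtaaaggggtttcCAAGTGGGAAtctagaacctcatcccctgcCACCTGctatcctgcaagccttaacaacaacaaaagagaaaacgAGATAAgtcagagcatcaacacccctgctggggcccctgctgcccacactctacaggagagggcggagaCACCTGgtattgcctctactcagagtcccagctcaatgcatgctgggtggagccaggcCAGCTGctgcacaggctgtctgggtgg

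The Cd3d window held 1 E-box and 2 TCF-LEF motifs, and the Cd3g window 4 E-boxes, 1 GATA motif and 1 Ikaros motif, with the Ikaros motif overlapping an E-box. The window table held 8 of the 10 genes, with 11 start sites; Cd4 and Thy1 were not in it. Of those 11 windows, 10 held an E-box, 6 an Ikaros motif, 2 a RUNX motif, 2 a TCF-LEF motif, 1 a GATA motif and 0 the MEF2 consensus. Among all 32851 windows the shares were 72.3% for the E-box, 25.6% for Ikaros, 16.8% for RUNX, 16% for TCF-LEF, 11.2% for GATA and 3.19% for MEF2. A match describes letters in the window only.

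The Cd3d signal was 7.40, 6.97 and 7.51 in control replicates 1, 2 and 3 and 8.76, 7.49 and 9.44 in Mef2c-deficient replicates 1, 2 and 3. Replicates 1 and 3 of the Mef2c-deficient group lay above every control array and replicate 2 lay within the control range. The means were 7.29 ± 0.29 and 8.56 ± 0.99 (SD, n = 3 each), a difference of 1.27 (SE 0.49, 95% confidence interval 0.12 to 2.42) or 2.41-fold, which is 1.84-fold if the base was e. By limma the unadjusted p was 0.0341 and the adjusted p 0.188. Without Mef2c-deficient replicate 3 the difference was 0.83, with an unadjusted p of 0.0858.

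Cd3g gave 6.30, 6.25 and 6.56 in the control arrays and 6.83, 6.05 and 7.77 in the Mef2c-deficient arrays, in the order of their replicate numbers. The same 2 Mef2c-deficient arrays as for Cd3d were above every control array, while replicate 2 was the lowest of the 6. Its difference of 0.51 (SE 0.44, interval -0.50 to 1.53) had an adjusted p of 0.439 by limma, and it was 0.07 without Mef2c-deficient replicate 3, 0.25 under quantile normalization and 0.19 under cyclic loess. The Cd3g probe set lay below the 40th percentile of mean signal (7.26), as did that of Cd8a, and the other 6 lay above it.

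Cd4, the co-receptor for MHC class II, showed a larger difference than the other 7 genes. Its signal was 8.93, 8.51 and 10.45 in control replicates 1, 2 and 3 and 10.30, 12.61 and 13.98 in the corresponding Mef2c-deficient replicates. Replicates 2 and 3 of the Mef2c-deficient group lay above every control array, and replicate 1 lay just under control replicate 3, so the groups overlapped. The means were 9.30 ± 1.02 and 12.29 ± 1.86 (SD, n = 3 each). The difference of 3.0 (SE 0.92, interval 0.86 to 5.14) was 7.99-fold, or 4.22-fold if the base was e, with an unadjusted p of 0.0123 and an adjusted p of 0.145 by limma.

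The Cd4 difference stayed between 2.16 (without Mef2c-deficient replicate 3) and 4.0 (without Mef2c-deficient replicate 1) over 21 settings of the analysis, with an unadjusted p under 0.05 in 20 of them. It passed the adjusted threshold in 1, limma with array weights, which counts the more variable arrays less (3.18, adjusted p = 0.0437), and its adjusted p ranged up to 0.362. Within the pairs of equal replicate number, Cd4 was higher in the Mef2c-deficient array by 1.37, 4.10 and 3.53.

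The 6 arrays had the same order for Cd4 as for Siglech, a surface receptor of plasmacytoid dendritic cells that was picked after its values were seen. Siglech gave 12.59, 12.51 and 15.53 in the control arrays and 14.41, 16.55 and 18.54 in the Mef2c-deficient arrays. Of 18 probe sets for plasmacytoid dendritic cell markers, 15 were higher in mean in the Mef2c-deficient arrays, 8 of them at an unadjusted p under 0.05 and 0 at the adjusted threshold, with a median difference of 1.18 (0.72 without Mef2c-deficient replicate 3). The count of 8 is to be read beside 8.26% of all probe sets tested, and it was 11 with the replicate block, 2 by the methods' t-test, 3 and 4 without control replicates 1 and 2, and 5 without Mef2c-deficient replicate 3. With array weights, Cd209d and Pld4 of this list passed the adjusted threshold by limma (adjusted p 0.0409 and 0.0401). The 2 named for the highest mean value, Ly6d and Spib, a transcription factor of plasmacytoid dendritic cells and B cells, differed by 0.64 (SE 0.47) and -0.27 (SE 0.33, and -0.05 without Mef2c-deficient replicate 3). The summed signal of the list was 531288 to 960168 in the control arrays and 811750 to 1936433 in the Mef2c-deficient arrays. The part of such cells in the Cd4 difference was not tested, and in bulk samples more cells of a type and more RNA per cell cannot be told apart.

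Cd8a encodes the alpha chain of CD8, the co-receptor for MHC class I. Its signal was 3.59, 4.11 and 3.54 in the control arrays and 4.36, 4.20 and 6.24 in the Mef2c-deficient arrays. This was the single gene of the 8 whose groups did not overlap, against 15.8% of all probe sets tested with every Mef2c-deficient array above every control array. Replicates 1 and 2 exceeded the highest control array by a small margin, and replicate 3 lay far above. The difference of 1.19 (SE 0.55, interval -0.08 to 2.46) was 2.28-fold, or 1.77-fold with base e, with an adjusted p of 0.229 by limma, and it was 0.54 without Mef2c-deficient replicate 3. The Cd8a and Zap70 probe sets are of the _x_at type, whose probes can match other transcripts. The share of 15.8% is to be read beside each gene named below as higher without overlap, many of which were chosen for a small p. The share of all probe sets lower without overlap was not counted.

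The genes next to the co-receptors on the chromosome varied over the arrays as well. Cd8b1, which encodes the beta chain of CD8 and is adjacent to Cd8a, gave 6.72, 7.30 and 8.85 in the control arrays and 8.21, 8.83 and 13.28 in the Mef2c-deficient arrays, a difference of 2.48 (SE 1.27, adjusted p 0.259) that was 0.89 without Mef2c-deficient replicate 3. Lag3, which encodes an MHC class II receptor, lies beside Cd4 and is also on the plasmacytoid dendritic cell list, gave 7.85, 7.76 and 9.37 against 8.84, 8.57 and 11.04, a difference of 1.16 (SE 0.72, adjusted p 0.320) that was 0.38 without that array. In both, control replicate 3 was above the other control arrays and above Mef2c-deficient replicates 1 and 2, and Mef2c-deficient replicate 3 was the highest of all.

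Zap70, the kinase that docks on phosphorylated CD3 chains, gave 8.94, 9.56 and 8.87 in the control arrays and 9.85, 9.42 and 10.28 in the Mef2c-deficient arrays. Control replicate 2 was above Mef2c-deficient replicate 2, and the other Mef2c-deficient arrays were above every control array. The means of 9.12 ± 0.38 and 9.85 ± 0.43 (SD, n = 3 each) differed by 0.73 (SE 0.34, interval -0.05 to 1.51), or 1.66-fold (1.42-fold with base e), with an adjusted p of 0.229 by limma. Between the replicates numbered 2 the difference was -0.13, against 0.90 and 1.41 for numbers 1 and 3.

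A list of B-cell receptor signalling genes, which holds the B-cell counterparts of ZAP-70 and LCK, was mixed in direction. Of 9 probe sets for Syk and Src family kinases and B-cell receptor signalling partners, 4 were higher and 5 lower in mean, none with an unadjusted p under 0.05, and their median difference was -0.23 (0.10 without Mef2c-deficient replicate 3 and 0.00 under cyclic loess). Syk, the main kinase of the B-cell receptor, gave 17.13, 17.32 and 17.34 in the control arrays and 17.16, 16.94 and 15.45 in the Mef2c-deficient arrays (difference -0.75, SE 0.46, adjusted p 0.313), so its difference was -0.22 without replicate 3. Blk, a Src family kinase of B cells, differed by -0.97 (SE 0.54; -0.30 without that array), Fgr, a Src family kinase of myeloid cells, by 1.60 (SE 0.94; 0.59), and Src by 0.67 (SE 0.42; 0.20). Btk differed by -0.54 (SE 0.54; 0.10) and Yes1 by 0.55 (SE 0.37; 0.40). Src and Yes1 lay below the 40th percentile of mean signal. The signalling partners Blnk, Cd79b and Cd79a differed by -0.70 (SE 0.52; -0.09), -0.23 (SE 0.33; 0.05) and 0.32 (SE 0.36; 0.46). The difference between Zap70 and these kinases was not tested.

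Thy1, a glycoprotein anchored in the membrane by a lipid and used as a pan-T-cell marker in the mouse, depended on 1 array for its direction. It gave 7.74, 7.93 and 9.13 in the control arrays and 7.28, 9.01 and 11.47 in the Mef2c-deficient arrays. Replicate 1 of the Mef2c-deficient group was the lowest of the 6 arrays and replicate 3 the highest, with replicate 2 just under control replicate 3. The difference of 0.99 (SE 0.97, interval -1.26 to 3.24, adjusted p 0.494 by limma) became -0.12 without Mef2c-deficient replicate 3.

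Cd5, which dampens antigen-receptor signalling in T cells and in B-1 cells, gave 7.04, 7.36 and 6.79 in the control arrays and 7.07, 7.74 and 8.34 in the Mef2c-deficient arrays. Replicates 2 and 3 of the Mef2c-deficient group were above every control array and replicate 1 was within the control range. The difference was 0.65 (SE 0.37, interval -0.22 to 1.53, adjusted p 0.293 by limma), 0.34 without Mef2c-deficient replicate 3, 0.43 under quantile normalization and 0.38 under cyclic loess. Cd6, its neighbour on chromosome 19 and a related receptor, gave 8.28, 8.58 and 8.37 against 8.70, 8.46 and 9.23, a difference of 0.39 (SE 0.30; 0.17 without Mef2c-deficient replicate 3).

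Ms4a4b, a tetraspanning membrane protein of T cells, differed from the other 7 in which array was high. Its signal was 8.97, 9.28 and 9.35 in the control arrays and 9.23, 10.81 and 9.42 in the Mef2c-deficient arrays. Mef2c-deficient replicate 2 lay far above the rest, replicate 3 barely above the highest control array and replicate 1 within the control range. The difference of 0.62 (SE 0.44, interval -0.41 to 1.64) was 1.54-fold, or 1.35-fold with base e, with an adjusted p of 0.369 by limma. It was 0.12 without Mef2c-deficient replicate 2 and 0.82 without replicate 3.

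On the same array, the 12 probe sets for mature B and B-1 cell markers lay 1.18 (median) above the control mean, where the other Mef2c-deficient arrays lay at 0.11 and -0.06 and the control arrays between -0.44 and 0.23. Of that list 8 probe sets were higher and 4 lower in mean, and its summed signal was 269372 to 381559 in the control arrays and 326571 to 747201 in the Mef2c-deficient arrays. The 2 named for the highest mean value, Cd37 and Ms4a1, both of which encode surface proteins of B cells, differed by 0.25 (SE 0.35; 0.54 without Mef2c-deficient replicate 3) and 1.56 (SE 0.44). Other lists also had their highest median on Mef2c-deficient replicate 2. It was 1.02 for conventional dendritic cell markers, against 0.11 and 0.35 on Mef2c-deficient replicates 1 and 3. For T-cell surface, homing and effector genes it was 0.73, against 0.23 and 0.30. Ccr7 and Ctla4 belong both to that list and to the mature B and B-1 list. The part of mature B cells or of any other cells in the Ms4a4b signal was not tested.

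The plot of differences with 1 array left out sets these results together. Without Mef2c-deficient replicate 3, 7 of the 8 differences stayed above 0 and their median was 0.52, against 0.03 for all probe sets tested. Relative to the control mean, the median of the 8 genes was 0.54, 0.57 and 1.78 in Mef2c-deficient replicates 1, 2 and 3, and between -0.17 and 0.17 in the control arrays. Above every control array lay 4 of the 8 genes in replicate 1, 4 in replicate 2 and 8 in replicate 3, where the shares over all probe sets tested were 36.0%, 35.7% and 38.1%. Replicate 3 was the highest of the 6 arrays for 7 of the 8, against 21.0% of all probe sets tested.

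**Figure D2:**
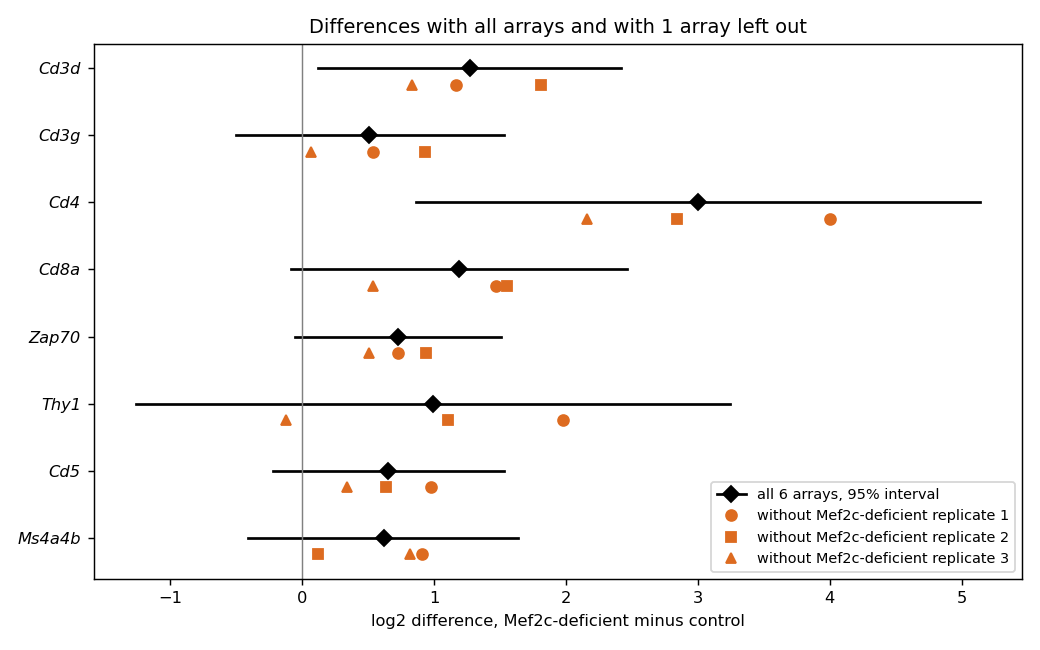
Log2 difference, Mef2c-deficient minus control, for the 8 T-lineage probe sets. Black diamonds with bars give the limma estimate and 95% confidence interval from all 6 arrays, and orange symbols the estimate without Mef2c-deficient replicate 1 (circle), 2 (square) or 3 (triangle). The intervals of Cd3d and Cd4 lie above 0, and the triangle of Thy1 lies at -0.12.

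Marker lists of several other blood cells were high on the array where most of the T-lineage genes were high. In Mef2c-deficient replicate 3 the median of the marker list relative to the control mean was 0.82 for T cells and 0.89 for NK cells. It was 0.82 for monocytes and macrophages, 0.96 for erythroid cells and 2.58 for plasmacytoid dendritic cells, besides the neutrophil value of 4.59 given above. On the same array the medians were 0.35 for conventional dendritic cells, 0.01 for plasma cells and -0.06 for mature B cells. By median, control replicate 3 was the highest control array for T cell (0.19), NK cell (0.50), plasmacytoid dendritic cell (0.59) and neutrophil (1.07) markers, and the lowest for monocyte and macrophage markers (-0.27). By summed signal it was instead the highest control array for monocyte and macrophage markers (25613) and the lowest for T cell markers (65032). It was the highest control array for Cd3d, Cd3g, Cd4, Thy1 and Ms4a4b and the lowest for Cd8a, Zap70 and Cd5. Summed signals in the control arrays against the Mef2c-deficient arrays were 2070 to 4218 against 2621 to 26799 for 13 NK cell probe sets, 7091 to 25613 against 6226 to 189642 for 15 monocyte and macrophage probe sets, and 34776 to 179453 against 46560 to 1293191 for 11 neutrophil probe sets. The 7 erythroid probe sets summed to 16190 to 25430 in the control arrays. In Mef2c-deficient replicates 1, 2 and 3 their sums were 6258, 4683 and 23188. No marker was at 0 on any array, since the lowest deposited value was 3.33. The purity of the sorted samples and the part of other cells in the T-lineage signals were not tested.

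Among the T cell markers, 10 of 11 probe sets were higher in mean in the Mef2c-deficient arrays (9 under quantile normalization and cyclic loess, 8 under median centring), 1 of them (Cd3d) at an unadjusted p under 0.05 (3 higher and 1 lower with the replicate block) and 0 at the adjusted threshold, and 2 of the 11 are Cd3d and Cd3g themselves. The remaining T cell markers are counted again in the lists of other T-cell genes below. The summed signal of the 11 T cell probe sets was 65032 to 85065 in the control arrays and 54030 to 129051 in the Mef2c-deficient arrays. Most of that sum was Cd2, with 83630, 80880 and 62800 in the control arrays and 96040, 127000 and 39790 in the Mef2c-deficient arrays. The sum therefore says little of the other markers. Cd2, an adhesion receptor of T cells and B-cell progenitors alike, differed by 0.06 (SE 0.45; 0.55 without Mef2c-deficient replicate 3), and Lat, the adaptor phosphorylated by ZAP-70, by 0.47 (SE 0.50; -0.06). Of the NK cell markers, 10 of 13 were higher in mean (6 of 13 without Mef2c-deficient replicate 3, where the median went from 0.58 to -0.15), and 2 were higher at an unadjusted p under 0.05, beside 8.26% of all probe sets tested (1 higher and 2 lower without that array, 3 higher and 1 lower with the replicate block). The NK receptor chain Klrd1 differed by 2.23 (SE 0.93; 1.11 without the array) and the granule protein Nkg7 by 0.66 (SE 1.21; -0.89). Of the monocyte and macrophage markers 14 of 15 were higher (11 under quantile normalization and median centring, 9 under cyclic loess), with differences of 0.06 (SE 1.66; -2.06 without Mef2c-deficient replicate 3) for lysozyme Lyz2 and 2.07 (SE 1.25; 0.67) for the lysosomal protein Cd68. Of the neutrophil markers 10 of 11 were higher, with 1.11 (SE 1.04; -0.01) for S100a9 and 1.75 (SE 1.27; 0.22) for S100a8, the calprotectin subunits, and without Mef2c-deficient replicate 3 the list had 2 of 11 higher and its median went from 1.29 to -0.55. At an unadjusted p under 0.05 none of the neutrophil markers was higher, and 5 were with the replicate block.

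**Figure D3:**
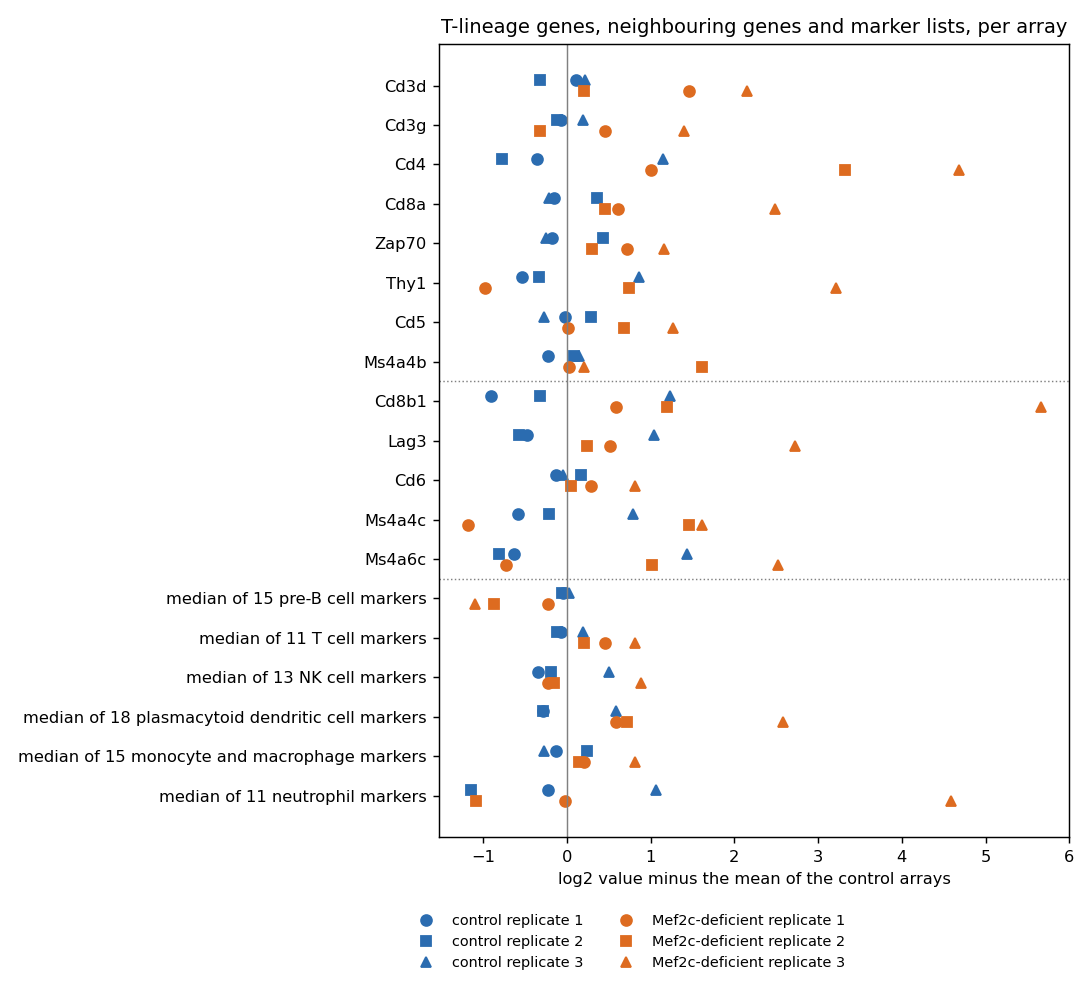
Log2 signal on each array minus the mean of the 3 control arrays, for the 8 T-lineage genes (top), 5 genes next to them on the chromosome (middle) and the median of each of 6 marker lists (bottom). Circles, squares and triangles are replicates 1, 2 and 3, control in blue and Mef2c-deficient in orange. Mef2c-deficient replicate 3 lies farthest to the right for 7 of the 8 genes and at 4.59 for the neutrophil markers.

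Other genes of the T-cell receptor pathway were mixed in direction. A list of receptor chains and signalling proteins held 45 genes besides those above, of which 32 had a probe set. In mean, 20 of the 32 were higher and 12 lower in the Mef2c-deficient arrays (18 and 14 under quantile normalization, cyclic loess and median centring), with a median difference of 0.40, or 0.16 without Mef2c-deficient replicate 3. None passed the adjusted threshold by limma. At an unadjusted p under 0.05, 4 were higher and 2 lower, to be read beside 8.26% and 15.4% of all probe sets tested. With the replicate number as a block these became 8 higher and 4 lower, and with each array centred on its median 3 higher and 5 lower.

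Among the 4 with the smallest p, Nfatc2, a calcium-regulated transcription factor downstream of the receptor, gave 7.89, 7.61 and 7.43 in the control arrays and 8.50, 9.53 and 8.89 in the Mef2c-deficient arrays. The groups did not overlap, with a difference of 1.33 (SE 0.33, adjusted p 0.117 by limma). Skap1, an adaptor that links the receptor to integrins, gave 7.57, 7.02 and 7.19 against 8.67, 8.14 and 8.21 and did not overlap either (1.08, SE 0.29, adjusted p 0.124). In neither gene was Mef2c-deficient replicate 3 the highest array.

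Sit1, a transmembrane adaptor that dampens receptor signalling, was lower in mean, with 12.47, 11.66 and 11.98 in the control arrays and 11.33, 9.66 and 9.74 in the Mef2c-deficient arrays (-1.79, SE 0.49, adjusted p 0.128). Bcl10, a scaffold of NF-κB signalling in both T and B cells, gave 14.90, 15.03 and 15.25 against 13.81, 14.52 and 14.11 (-0.91, SE 0.29, adjusted p 0.150). Every Mef2c-deficient array was below every control array for both. Ptprcap, a partner of the phosphatase CD45 and the gene of the list with the highest mean, differed by -0.13 (SE 0.34).

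The receptor chains themselves did not share a pattern, and each of their probe sets named here lay below the 40th percentile of mean signal (7.26). Cd247, the CD3 zeta chain, gave 6.49, 6.49 and 6.48 in the control arrays and 7.21, 7.61 and 6.72 in the Mef2c-deficient arrays, a difference of 0.69 (SE 0.30, adjusted p 0.214) without overlap. The Tcra probe set, for the receptor alpha chain, gave 4.88, 4.42 and 4.07 against 5.10, 4.67 and 3.95 (0.11, SE 0.38), with Mef2c-deficient replicate 3 the lowest of the 6. Ptcra, which encodes the pre-T-cell receptor alpha chain and is also expressed by plasmacytoid dendritic cells, gave 4.96, 5.27 and 5.51 against 5.59, 5.07 and 9.36 (1.42, SE 1.02), and its difference was 0.08 without replicate 3. These chains were picked for their role and after their values were seen.

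T-cell surface, homing and effector genes were mostly higher in mean, 23 of 27 probe sets (31 genes listed), with 21, 21 and 20 under quantile normalization, cyclic loess and median centring. Their median difference was 0.56 (0.55 without Mef2c-deficient replicate 3), 2 were higher and 0 lower at an unadjusted p under 0.05, near the 8.26% higher among all probe sets tested, and none passed the adjusted threshold. With the replicate block 6 were higher and 1 lower, and without Mef2c-deficient replicate 3 there were 5 higher and 0 lower. Izumo1r, the folate receptor 4 of regulatory T cells, gave 7.82, 8.08 and 8.14 in the control arrays and 9.69, 9.95 and 9.54 in the Mef2c-deficient arrays. The groups did not overlap and differed by 1.71 (SE 0.26, adjusted p 0.0743 by limma), and the adjusted p was 0.0496 without Mef2c-deficient replicate 3 and 0.0199 with array weights.

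Icos, a co-stimulatory receptor, gave 5.73, 6.02 and 6.10 against 7.12, 6.46 and 6.39 (0.71, SE 0.30, adjusted p 0.209), also without overlap. Cd28, the main co-stimulatory receptor of T cells, gave 3.77, 3.78 and 4.68 against 5.05, 5.28 and 9.65, again without overlap but with replicate 3 far above the rest (2.58, SE 1.13, adjusted p 0.217; 1.09 without it). Ctla4, the inhibitory counterpart of CD28, had its highest signal in Mef2c-deficient replicate 2, as Ms4a4b did, with 6.59, 7.98 and 6.71 against 7.92, 10.92 and 7.99 (1.85, SE 0.82, adjusted p 0.219).

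T-lineage transcription factors, 16 probe sets for 20 listed genes, were split: 10 higher and 6 lower in mean (11 and 5 under quantile normalization and cyclic loess, 8 and 8 under median centring). At an unadjusted p under 0.05, 5 were higher and 1 lower, beside 8.26% and 15.4% of all probe sets tested. That count was 2 and 0 under quantile normalization and cyclic loess, 3 and 0 with the replicate block, and 0 and 1 among the 11 probe sets above the 40th percentile of signal. The median difference was 0.24 (0.29 without Mef2c-deficient replicate 3, and -0.28 over the 11 probe sets above the 40th percentile of signal). Notch3, a receptor of early T-cell development, gave 5.85, 5.29 and 6.17 in the control arrays and 8.46, 6.95 and 8.57 in the Mef2c-deficient arrays (2.22, SE 0.48, adjusted p 0.103). Tox2, a high-mobility-group factor, gave 5.88, 6.06 and 5.63 against 7.35, 7.02 and 6.91 (1.23, SE 0.27, adjusted p 0.103). Neither pair of groups overlapped.

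Foxp3, the factor of regulatory T cells, was lower in mean, with 9.96, 9.87 and 10.37 in the control arrays and 9.46, 9.47 and 9.13 in the Mef2c-deficient arrays (-0.71, SE 0.27, adjusted p 0.186), and the groups did not overlap. Ikzf2, the Ikaros family member Helios, differed by 0.90 (SE 0.37, adjusted p 0.202; 0.52 without Mef2c-deficient replicate 3). Klf2, a factor of lymphocyte quiescence and homing and the gene of the list with the highest mean, differed by -0.72 (SE 0.97; 0.33).

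Ms4a4b sits on chromosome 19 between Ms4a4c and Ms4a6c in a cluster of related genes. The other members of the Ms4a family with a probe set numbered 14 (16 listed), and 14 were higher in mean, with a median difference of 0.51 (0.22 without Mef2c-deficient replicate 3). The smallest difference was 0.07 (Ms4a15). Of all probe sets tested 52.6% were higher, and 73.5% to 86.0% in deciles 1 to 4 of mean signal. Above the 40th percentile of signal lay 6 of the 14. Under quantile normalization and cyclic loess 10 of the 14 were higher, and under median centring 11. At an unadjusted p under 0.05, 4 were higher and 0 lower, beside 8.26% and 15.4% of all probe sets tested, and 2 were higher without Mef2c-deficient replicate 3 or either of control replicates 1 and 2. None passed the adjusted threshold.

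Ms4a1, which encodes the B-cell protein CD20 and had the highest mean of the family, gave 14.38, 14.79 and 15.71 in the control arrays and 15.92, 17.00 and 16.64 in the Mef2c-deficient arrays, without overlap (1.56, SE 0.44, adjusted p 0.131 by limma). Ms4a3, known from granulocyte-monocyte progenitors, gave 7.43, 7.22 and 6.99 against 8.25, 8.54 and 8.42, also without overlap (1.19, SE 0.26, adjusted p 0.103). Ms4a6b differed by 1.11 (SE 0.40, adjusted p 0.174) and Ms4a6d by 0.75 (SE 0.30, adjusted p 0.199). The flanking genes overlapped between groups, Ms4a4c with a difference of 0.63 (SE 0.76) and Ms4a6c with 0.94 (SE 0.89), both 0.14 without Mef2c-deficient replicate 3.

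**Figure D4:**
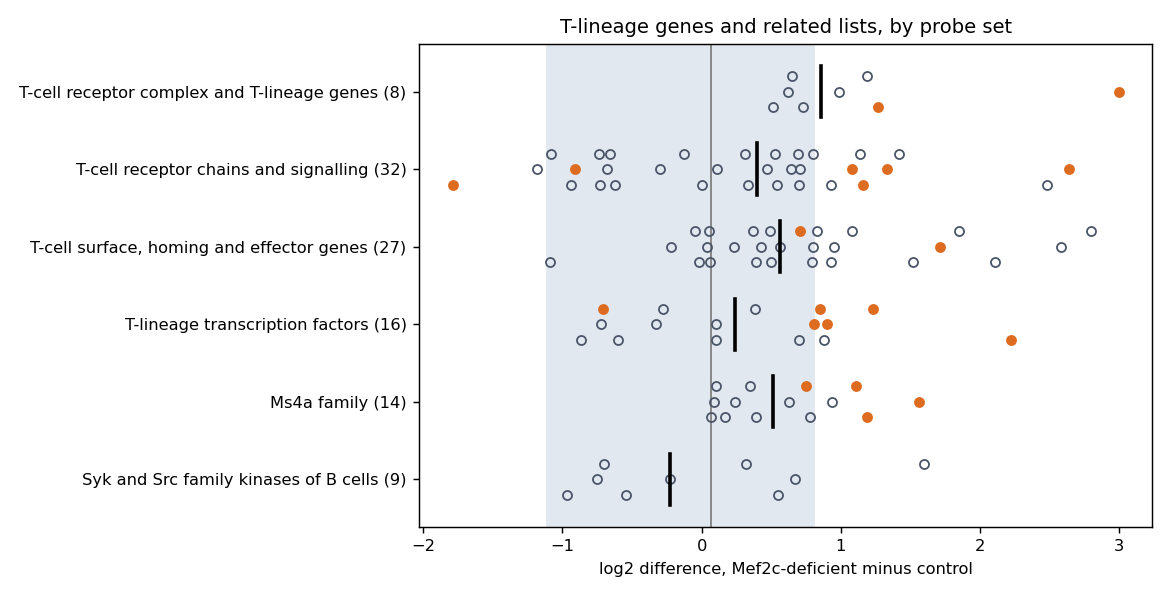
Log2 difference, Mef2c-deficient minus control, of each probe set of the T-cell receptor complex and T-lineage genes and of 5 related lists (number of probe sets in brackets; vertical position within a row has no meaning). Filled orange points have an unadjusted limma p under 0.05, black bars mark the median of a list, the gray line marks the median of all probe sets tested (0.07) and the shaded band their 10th to 90th percentile (-1.11 to 0.81). The medians run from -0.23 for the Syk and Src family kinases to 0.86 for the T-lineage genes.

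Over the 6 arrays, the genes whose log2 signal followed the mean of Cd3d and Cd3g most closely were Cd300lb (Pearson r = 0.993), Pdia5 (0.993), Mical2 (0.992), Znrf3 (0.991) and C2cd4c (0.991). Each of them had Mef2c-deficient replicate 3 highest and replicate 1 next, as Cd3d and Cd3g had. Pdia5, a protein disulfide isomerase, gave 6.86, 6.83 and 7.30 in the control arrays and 8.83, 7.07 and 10.61 in the Mef2c-deficient arrays. Those closest to Ms4a4b were Prkab2 (0.995), Pcolce (0.989), Mybbp1a (0.987), E130304I02Rik (0.986) and Hgf (0.986), all with Mef2c-deficient replicate 2 highest. These values were the highest of 17689 probe sets over the same 6 arrays and describe the arrays' order only.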

How the data were processed

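RNA of sorted pre-B cells was measured on 6 arrays, 3 control and 3 Mef2c-deficient, grouped by the titles in the labels. Per the study's methods the authors background adjusted, quantile normalized and summarised the arrays by RMA and used limma, and they filtered probe sets on detection calls; those calls played no part below. The authors deposited linear intensity values of 23913 probe sets, from 3.33 to 2144602, and 2865 of 143478 values (2.0%) exceed 65535, the limit of a 16-bit scanner, so the base of the exponent is open. No version of RMA or limma as the authors ran them was found in the text or labels.

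The values were log2-transformed without offset. Probe sets with several symbols (524), with none (5675) and AFFX controls (25) were left out, and 17538 of the 17689 tested matched RefSeq by gene identifier with 0 symbols changed. Group differences were fitted with limma 3.58.1 in R 4.3.3 to all tested probe sets with no filter on level, since every probe set of a gene was to be shown, two-sided with Benjamini-Hochberg adjustment over all of them. The script was tested on simulated data. Tables were made with Python 3.11.15, pandas 2.3.3 and numpy 2.4.6. Precision is limited by having 3 arrays a group.

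The genes and lists were chosen with earlier results of these data known. Named genes were the T-lineage genes, in each related list up to 4 genes with the smallest unadjusted p and the gene with the highest mean, in each marker list the 2 with the highest mean, and the 5 closest to Cd3d with Cd3g and to Ms4a4b by Pearson r; others are stated as picked after their values were seen or are chromosomal neighbours. Replicate numbers in the labels paired the arrays: deviations from the group means correlated at 0.278, 0.156 and 0.327 between arrays of equal number and at -0.272 to 0.12 otherwise, which is a property of the data and not a stated litter or batch. Alternatives were filters at the 40th percentile of signal, quantile, cyclic loess and median scaling, an offset of 16, variance trend, robust variance, array weights, other probe-set selections, the replicate block, the methods' t-test and leaving out each array; leaving out both arrays numbered 3 was added after seeing the data.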

Additional observations from a re-analysis of the deposited data

How the results depend on the processing

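All 8 T-lineage probe sets, or all 6 where a filter left 6, were higher in mean in the Mef2c-deficient arrays under every alternative run, except Thy1, whose difference was -0.12 (adjusted p = 0.9) without Mef2c-deficient replicate 3 and reached 1.98 with another array left out. None passed the adjusted threshold except Cd4 with array weights (1 probe set, 3.18, adjusted p = 0.0437). The count of T-lineage probe sets at an unadjusted p under 0.05, 2 with all arrays, was 1 under median centring, 0 by the methods' t-test, 1 without both arrays numbered 3, and 1 to 5 when 1 array was left out (1 without control replicate 1, control replicate 3 or Mef2c-deficient replicate 3, 4 without Mef2c-deficient replicate 1 and 5 without Mef2c-deficient replicate 2). For the other T-cell receptor genes, 6 with all arrays, it was 10 under quantile normalization, 11 under cyclic loess, 10 with array weights, 12 with the replicate block and 5 to 10 with 1 array left out (10 without Mef2c-deficient replicate 1).

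Over all probe sets tested, 3 passed the adjusted threshold, against 718 with array weights (100 higher and 618 lower), 0 by the methods' t-test, where 1426 were higher and 2050 lower at an unadjusted p under 0.05, 1 without both arrays numbered 3, and 0 to 97 with 1 array left out (0 without any single control array, 19 without Mef2c-deficient replicate 1, 97 without replicate 3). With the replicate block 2 passed, and no call on a T-lineage probe set changed (smallest adjusted p 0.0816); the lists whose unadjusted counts moved by over 1.5 times and that are read in the report have their blocked counts there. With array weights, Sit1, Izumo1r, Notch3, Tox2 and Ms4a1 of the related lists passed the adjusted threshold. Of the marker lists, Cd209d, Pld4 and Cd209a (higher) and Plscr1, Sdc1 and Slamf7 (lower) passed it as well in that setting. The filters moved the median difference of all probe sets from 0.07 to -0.36 and median centring to -0.09, while that of the T-lineage genes was 0.86 and 0.69. The cause of these changes was not tested. With 3 arrays a group, differences of the size of Cd3g or Cd5 lie within the spread between arrays, and the deposited table holds no background level against which a weak signal could be set.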

Other observations

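Marker lists of further blood cells did not share the direction of the T-lineage genes throughout. Of 9 plasma cell probe sets, 5 were higher and 4 lower in mean in the Mef2c-deficient arrays, and the 3 with an unadjusted p under 0.05 were lower, beside 15.4% of all probe sets tested. Irf4, a factor of plasma cells and pre-B cells, gave 17.90, 17.49 and 17.51 in the control arrays and 17.19, 16.53 and 15.21 in the Mef2c-deficient arrays (difference -1.32, SE 0.49, adjusted p 0.179 by limma; -0.78 without Mef2c-deficient replicate 3), while Mzb1, a chaperone of the secretory pathway, differed by 0.47 (SE 0.31). Of 7 erythroid probe sets, 6 were higher and 1 lower, with -1.48 (SE 0.63; -2.25 and an adjusted p of 0.0492 by limma without Mef2c-deficient replicate 3) for the carbonic anhydrase Car2 and 0.60 (SE 0.26) for the anion exchanger Slc4a1. Of 8 conventional dendritic cell probe sets, 6 were higher and 2 lower, with 0.37 (SE 0.33) for Cd74 and 0.52 (SE 0.39) for H2-Aa, both of MHC class II antigen presentation. In that list 2 were higher and 1 lower at an unadjusted p under 0.05, beside 8.26% and 15.4% of all probe sets tested. They are named here after their values were seen. The lectin Cd209a differed by 3.51 (SE 1.03) and the integrin Itgax by 3.38 (SE 1.19). Ciita, the activator of MHC class II genes, differed by -0.89 (SE 0.35). Without Mef2c-deficient replicate 3, Itgax differed by 1.97 and Ciita by -0.57. The groups did not overlap for any of these genes, which were chosen for a small p. Over all probe sets tested, 15.8% were higher without overlap, and the share lower without overlap was not counted. With all 6 arrays and equal weights no probe set of these lists passed the adjusted threshold.

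Cd7, a surface protein of T cells, NK cells and their progenitors, had a wide spread among the T-cell surface genes, with 9.50, 9.75 and 12.10 in the control arrays and 10.94, 12.13 and 16.69 in the Mef2c-deficient arrays (difference 2.80, SE 1.43, adjusted p 0.257; 1.08 without Mef2c-deficient replicate 3). It was picked after its values were seen, and its 6 arrays stood in the same order as for Siglech except that control replicates 1 and 2 changed places.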
